A study of Mus musculus with 629 samples.

Results

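Microglia, the resident macrophages of the brain parenchyma, made up 215 of the 629 single brain cells in the deposited count table. They were chosen by the cell type given in each cell's label, and the other cells were 400 labelled macrophages and 14 cells of a type named only 7. The study compared mice of 3 Notch3 genotypes, and 79 of the microglia were wild-type (WT), 78 carried the knockout (KO) and 58 were heterozygous (Het). All cells came from brain of adult C57BL/6 mice of the SM22-Cre;Rosa26-stop-tdTomato reporter line, in which the SM22 promoter drives Cre and Cre switches on a red fluorescent protein. They had been sorted by fluorescence into 384-well plates and sequenced with SMART-seq2, which reads full-length polyadenylated transcripts, 1 cell per well. The cells lay on 6 plates, and a pool below means all microglia of the same plate and genotype: plate 056s Het with 15 cells, 059s WT with 44, 060s KO with 47, 524s Het with 15, 524s KO with 31, 529s Het with 28, 529s WT with 15 and 530s WT with 20. The labels named no animal and no treatment, so each genotype was treated as 1 sample: groups are described, and no test between them and no p-value is given. The sources used here did not say how the cell type labels were made.

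Microglia arise from yolk sac precursors, depend on the receptor Csf1r for survival, and keep their identity through TGF-beta signals and the transcription factor Sall1. They survey the tissue with purine and chemokine receptors such as P2ry12 and Cx3cr1, tag and engulf material through complement and phagocytic receptors, and digest it in a large lysosomal system. Macrophages at the borders and vessels of the brain share much of this program but use other surface genes, among them Mrc1, Lyve1 and Cd163.

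The counts of a microglial cell, without ERCC spike-ins and Rn18s (18S ribosomal RNA), ran from 13829 to 2107020 with a median of 246550, and 2057 to 7451 genes were detected per cell (median 4719). Rn18s took 40.3% of all gene counts of microglia, and the median share of its cells ran from 16.1% in the 056s Het pool to 55.9% in the 529s Het pool. Levels are therefore given in CPM, a gene's share of the counts without ERCC and Rn18s scaled to a common library size, after summing the cells of a pool. Because molecular identifiers are not part of this method, reads include PCR copies. Intervals and limits below are binomial over cells taken as independent, although cells share plates. Notch3, the gene targeted in the study, had a count in 3 of the 215 microglia and at most 0.165 CPM in any pool, WT pools included, so that its level checks no genotype label. The female transcript Xist stood at 830 to 1377 CPM in the 524s KO, 529s Het and 530s WT pools and at 0 to 8.81 CPM in the others, which instead held the Y-linked gene Ddx3y at 38.0 to 126.5 CPM. No pair of microglia had identical counts.

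The markers matched the label. P2ry12, a purine receptor that guides microglial processes, was at 2535 CPM in the lowest pool, 5632 at the median and 7092 in the highest. Tmem119, a membrane protein of unclear function, ran from 5058 over 5724 to 8221 CPM in the same order. Sall1, the transcription factor that maintains microglial identity, ran from 236 over 374 to 681 CPM. For all 7 markers every microglial pool lay above every macrophage pool, in which the medians were 368 CPM for P2ry12, 103 for Tmem119 and 1.39 for Sall1. Siglech, a sialic acid-binding lectin, had a median of 1364 CPM against 64.4 in macrophages, Olfml3, a secreted matrix protein, 3105 against 46.4, and Sparc, a matrix-binding glycoprotein, 5975 against 106. The fractalkine receptor Cx3cr1 separated the types least, with 6968 against 1910 CPM. A count of P2ry12, Siglech, Olfml3, Sparc and Cx3cr1 was present in all 215 microglia and of Tmem119 in 214. Sall1 was found in 196 cells, or 91.2% (exact Clopper-Pearson 95% interval 86.5% to 94.6%), and in 15.8% of macrophages.

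**Figure D1:**
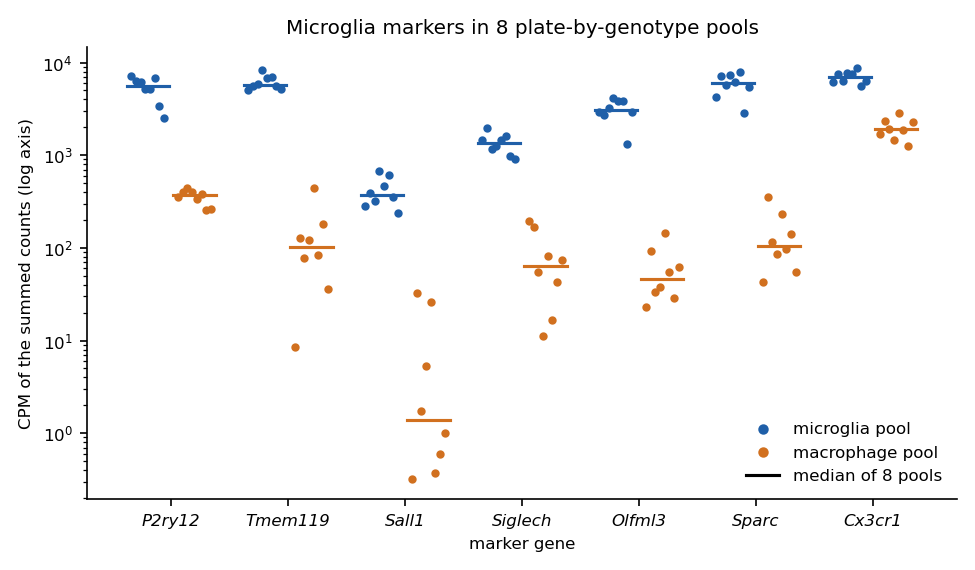
Level of the 7 microglia markers (CPM of the summed counts, log axis) in 8 pools of microglia (blue points) and the same 8 plate-by-genotype pools of macrophages (orange points), with the median of 8 pools as a line. Every blue point lies above every orange point of its gene, and the distance is smallest for Cx3cr1 (6968 against 1910 CPM at the median).

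Marker genes of other cell types took little of the counts, with the exception of those of perivascular macrophages. The summed share of 10 mural cell genes, such as the smooth muscle actin gene Acta2, was 3.1e-05% to 0.0102% of counts over the pools, that of 6 fibroblast genes 1.9e-05% to 0.00668%, and that of 9 neuronal genes 4.8e-04% to 0.00259%. Endothelial genes took at most 0.00883%, 8 lymphocyte genes at most 0.0114% and 8 monocyte and neutrophil genes at most 0.0232%. The intermediate filament gene Des of mural cells and the natural killer receptor gene Ncr1 had no count in any of 215 cells, which limits the cells with a count, not the cells expressing the gene, to at most 1.40%. The 8 astrocyte genes took 0.00918% to 0.0386%. Oligodendrocyte genes took 0.0318% to 0.0649%, led by the myelin gene Mbp with a median of 209.5 CPM. All 16 genes of the perivascular macrophage list, in contrast, reached 20 CPM at the median of the microglial pools. They took 1.03% to 1.97% of the counts (median 1.51%), below the 3.15% to 4.19% of macrophages in each of 8 pools. Whether these counts came from the microglia themselves or from macrophages was not tested.

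The level of genes was compared per kilobase (kb) of exon, since longer transcripts yield more reads in this method. Counts were concentrated in few genes: the 10 largest held 11.4% to 18.4% of the counts of a pool (median 13.4%), and the 500 largest 54.9% at the median. At the median of the 8 pools 6162 genes reached 20 CPM, 90 reached 1000 CPM and 5 reached 10000 CPM. A count in every one of the 215 microglia was found for 105 genes, and a count in at least 90% of them for 621.

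Apolipoprotein E (Apoe), which carries cholesterol and other lipids between cells, had the highest level per kb. Its pools ran from 10328 over a median of 14848 to 30251 CPM per kb. The highest value belonged to the 530s WT pool, which is taken up again below, and the macrophage median was higher still, at 33539 CPM per kb. All 3 chains of C1q, the recognition molecule of the classical complement pathway, were among the 25 genes with the highest level per kb (mitochondrial, ribosomal protein, predicted and pseudogenes left out). C1qb had a median of 10472 CPM per kb, C1qa 7309 and C1qc 2821, and the pools of both types overlapped for each chain, with macrophage medians of 9592, 7033 and 2598. Further complement genes were lower, with the receptor genes C5ar1 at 526 CPM and C3ar1 at 476, and C3 itself at 10.5 CPM and found in 14.0% of cells.

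Lysosomal proteins formed the largest of the classes measured. The 28 genes of the list held 7.82% to 10.3% of the counts (median 8.95%), and all 28 exceeded 20 CPM. Per kb, cystatin C (Cst3), a secreted inhibitor of cysteine proteases, stood at a median of 5993 CPM, the protease legumain (Lgmn) at 4699, cathepsin D (Ctsd) at 3860, cathepsin S (Ctss) at 3791 and progranulin (Grn) at 2386. Laptm5, Psap and Ctsb, which encode a lysosomal membrane protein, the precursor of the saposins and cathepsin B, had 2405, 1472 and 1460 CPM per kb. The exons of Ctsd, Grn and Ctsb overlap those of Gm49369, Fam171a2 and Fdft1 in GENCODE M21, and because the method does not mark strand the reads of each pair may not be separated. Lysozyme (Lyz2), which macrophages held at 6060 CPM per kb, was at 2310 in microglia and varied from 1040 to 4951 between pools.

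Survey and survival receptors followed. Csf1r had 3228 CPM per kb, Tmem119 2473, P2ry12 2212 and Cx3cr1 1547, with overlapping exons of Hmgxb3, Med12l and Gm33858 for Csf1r, P2ry12 and Cx3cr1. Fcrls, an Fc receptor-like protein, had a median of 2507 CPM per kb and a low pool at 726. Among the other genes of the highest 25 were the selenium carrier Selenop (3012 CPM per kb, overlapped by Ccdc152), the actin gene Actb (2367), the MHC class I light chain B2m (2206), the membrane protein Itm2b (1828), the marker Sparc (1577) and the actin-binding thymosin Tmsb4x (1460). In macrophages Apoe and C1qb also ranked 1 and 2 per kb, while P2ry12 ranked 231, Tmem119 859 and Sparc 1397.

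**Figure D2:**
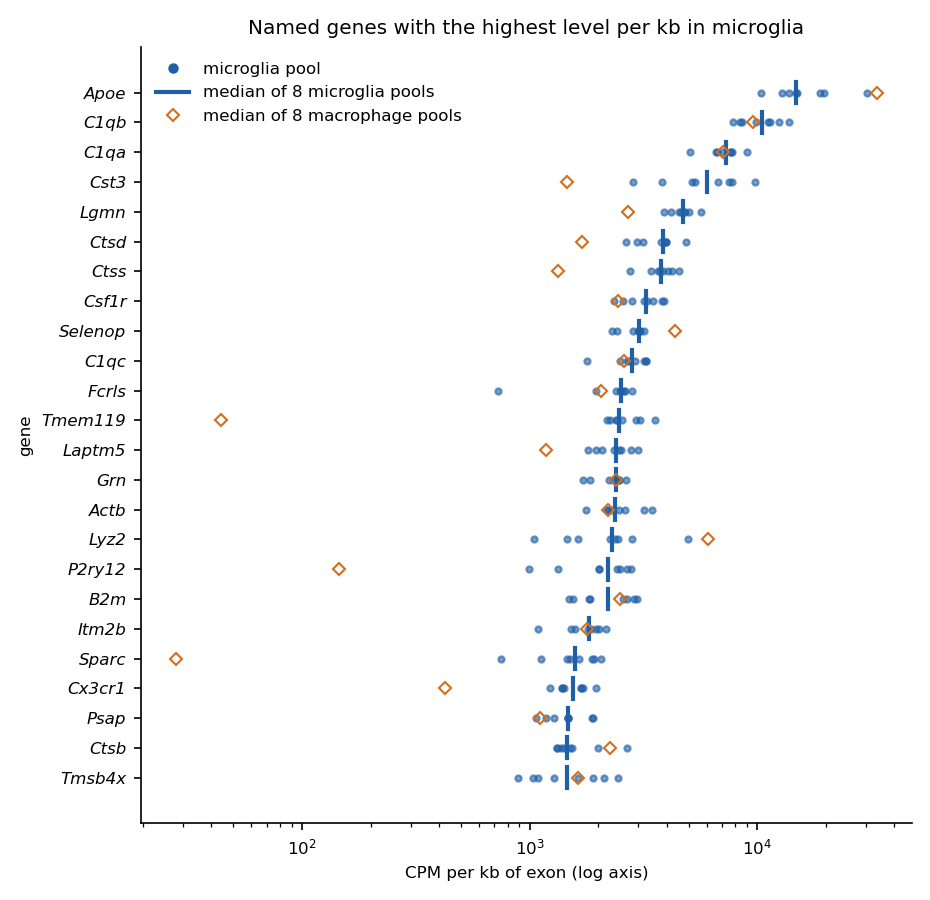
The named genes with the highest level per kb of exon in microglia (log axis), with each of the 8 microglial pools as a blue point, their median as a blue bar and the macrophage median as an orange diamond. Apoe leads in both cell types, C1qa, C1qb, C1qc, Grn and Actb nearly coincide, and Tmem119, P2ry12 and Sparc lie far to the left in macrophages.

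Promoter sequences are shown for 3 of the highest genes and 1 marker, because many myeloid promoters carry the purine-rich core GAGGAA to which the lineage factor PU.1 (Spi1) binds. The windows span 250 bases before to 50 after the annotated start and come from RefSeq on GRCm38.p6, 5′ to 3′ on the strand of the gene. Capitals mark GAGGAA or its complement on the other strand, TTCCTC.
C1qb promoter, chr4:136886151-136886450, minus strand: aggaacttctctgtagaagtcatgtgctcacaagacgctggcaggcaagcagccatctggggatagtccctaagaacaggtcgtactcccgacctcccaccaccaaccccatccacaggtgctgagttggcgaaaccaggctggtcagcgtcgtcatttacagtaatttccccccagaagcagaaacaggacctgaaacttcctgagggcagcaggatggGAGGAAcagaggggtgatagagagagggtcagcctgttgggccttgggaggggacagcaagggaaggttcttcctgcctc
C1qc promoter, chr4:136892865-136893164, minus strand: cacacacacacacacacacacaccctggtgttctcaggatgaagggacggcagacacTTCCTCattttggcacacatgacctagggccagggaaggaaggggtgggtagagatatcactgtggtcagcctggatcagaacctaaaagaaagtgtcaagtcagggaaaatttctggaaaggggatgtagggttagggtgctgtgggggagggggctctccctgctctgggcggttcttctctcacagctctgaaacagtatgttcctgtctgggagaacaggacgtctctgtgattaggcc
Ctss promoter, chr3:95526536-95526835, plus strand: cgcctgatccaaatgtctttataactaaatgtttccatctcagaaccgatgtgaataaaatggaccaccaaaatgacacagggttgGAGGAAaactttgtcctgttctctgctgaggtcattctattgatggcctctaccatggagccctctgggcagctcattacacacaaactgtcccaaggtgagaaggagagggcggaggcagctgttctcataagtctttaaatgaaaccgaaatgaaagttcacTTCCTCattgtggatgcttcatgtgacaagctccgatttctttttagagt
P2ry12 promoter, chr3:59262936-59263235, minus strand: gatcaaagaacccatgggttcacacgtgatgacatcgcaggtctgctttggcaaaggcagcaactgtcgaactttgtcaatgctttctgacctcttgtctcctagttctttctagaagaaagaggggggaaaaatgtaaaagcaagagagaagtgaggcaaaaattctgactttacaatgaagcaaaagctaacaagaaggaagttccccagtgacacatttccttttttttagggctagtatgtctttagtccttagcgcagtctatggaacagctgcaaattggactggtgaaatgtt
The core was found at 1 position in the windows of C1qb and C1qc, at 2 in that of Ctss and at none in that of P2ry12. Of the 25 highest genes 19 were in the sequence table with 25 windows, and 12 windows (48%) held GAGGAA on either strand, against 28.3% of all 32851 windows. Of the 8 windows of the 6 markers with a sequence 1 held it, and 8 windows are too few to set apart from that share. Several of them are of Sall1, and P2ry12, Sparc and Cx3cr1 are also among the 25 genes. Of the 79 genes at least 4-fold higher in microglia than in macrophages, described below, 55 had a sequence. Among their windows 27 of 73 (37.0%) held GAGGAA. The longer form GAGGAAGT, which contains the core, was in 4 of the 25 windows (16%), 0 of the 8 marker windows and 3.20% of all. Of these 4 windows 2 are overlapping windows of Selenop with the same site, so both counts hold that site more than once. For the AP-1 motif TGAGTCA the shares were 4% and 5.20%. These are matches of letters and show neither binding nor regulation.

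Transcription factors of the myeloid lineage were expressed at moderate levels. Irf8, which microglia require to develop, had a median of 545 CPM, Irf5 490, Spi1 482 and Mef2c 480, and 12 of 15 genes of the list exceeded 20 CPM.  In the TGF-beta list, 9 of 12 genes exceeded 20 CPM. Nrros, which presents latent TGF-beta on microglia, had 967 CPM, and the receptor genes Tgfbr2 and Tgfbr1 had 842 and 736, while the ligand gene Tgfb1 was at 7.34 CPM and found in 22.8% of cells. Of 18 Notch pathway genes 9 exceeded 20 CPM. Among them were the gamma-secretase and sheddase genes Ncstn (437 CPM), Adam17 (279), Adam10 (156) and Psen2 (42.6), the receptor genes Notch2 (141) and Notch1 (98.3), and Rbpj (58.9) and Maml1 (31.7) of the nuclear complex. The target genes Hes1, Heyl, Hey1 and Nrarp had medians from 0 to 1.28 CPM.

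The surface receptor list of 24 genes took 1.33% to 1.56% of the counts. Its highest members were the lipid receptor Trem2 (1313 CPM), the membrane protein Cmtm6 (1272) and the Fc receptor Fcgr3 (1168), and per kb the signalling adaptor Tyrobp (1276) and the Fc receptor gamma chain Fcer1g (1039) exceeded Trem2 (266). MHC class I genes held 0.524% to 0.904%, with B2m at 1898 CPM, H2-D1 at 1808 and H2-K1 at 1241. MHC class II genes held 0.0249% to 0.0852%, and the highest pool, 530s WT, had 0.0363% without 1 cell: H2-DMa was at 150 CPM and the invariant chain Cd74 at 96.1, while the peptide-binding chains H2-Aa, H2-Ab1 and H2-Eb1 were at 2.97 to 7.92. The iron-binding protein transferrin (Trf) had 4331 CPM, ferritin heavy and light chains (Fth1 and Ftl1) 1127 and 727. Interferon-stimulated genes held 0.0594% to 0.132%, with Bst2 (175 CPM), Oasl2 (120) and Stat2 (80.0) highest, and Isg15 at 0.426. The upper value belonged to the 530s WT pool, where 1 cell gave 58.9% of these counts and the share without it was 0.0586%. Proliferation genes were low: Mki67 was found in 8.84% and Top2a in 8.37% of cells.

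Mitochondrial transcripts held 1.71% to 4.10% of the counts (median 2.35%). A mitochondrial ribosomal RNA alone held 1.53% at the median of the pools, and 9 of the 37 genes reached 20 CPM. In the highest pool, 530s WT, 1 cell gave 47.9% of the mitochondrial counts, and without it the pool had 2.26%. The 91 ribosomal protein genes together held 0.289% to 0.446%, with 34 of them above 20 CPM, and Gapdh was at 19.4 CPM and found in 87.9% of cells. Ribosomal protein genes and Gapdh have many near-identical copies in the genome, and how reads matching several places were counted was not given in the sources used here, so these levels are uncertain.

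**Figure D3:**
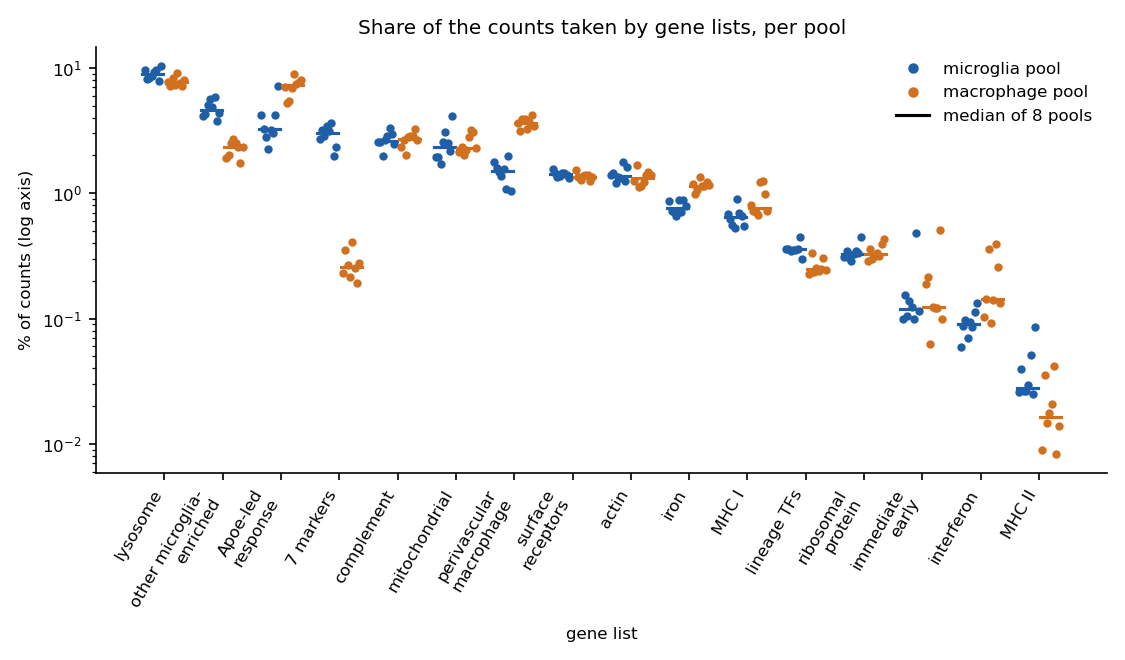
Share of the counts (%, log axis) taken by 16 gene lists in 8 pools of microglia (blue) and of macrophages (orange), with medians as lines. Lysosomal genes lead in both types with medians of 8.95% and 7.66%, the 7 markers differ most (3.02% against 0.259%), and 1 microglial pool stands above the others for the Apoe-led response list, immediate early genes and MHC class II.

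Compared with macrophages of the same 8 pools, 79 of 6659 genes (1.19%) were at least 4-fold higher in microglia in every pool, on the scale of CPM + 1, and 0 (0%) were 4-fold lower in every pool. Both types share plate and genotype in each pool, but the labels that define the types may rest on the same counts, so these genes describe the labels and are not tested. Of the 7 markers 6 passed, all but Cx3cr1. The 12 largest differences of named genes were those of the markers Sall1 and Tmem119 and of Parvg, a parvin linking integrins to actin (384 against 1.73 CPM), the protease inhibitor Spint1 (242 against 1.05), the stem cell antigen Cd34 (162 against 0.434), the adhesion receptor Adgrg1 (897 against 12.5), Ecscr (232 against 1.76), the tetraspanin Cd9 (288 against 4.24), the organic anion transporter Slco4a1 (84.5 against 0.0934), Lrrc3 (161 against 1.46), the cytokine Il1a (97.1 against 0.338) and Arhgap27 (226 against 2.46). Of the list of other microglia-enriched genes 6 of 15 passed, among them the selectin ligand Selplg (3836 against 208 CPM), Gpr34, Adgrg1, the fructose transporter Slc2a5 and Golm1. Tgfbr1 was the 1 member of 9 tested in the TGF-beta list (736 against 65.8 CPM), and the adenosine receptor Adora3 the 1 of 23 among surface receptors. The median log2 ratio was 5.80 for the 7 markers and 2.11 for the other microglia-enriched genes, beside -0.01 for all genes tested.

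At a 2-fold limit, chosen after 0 genes had been 4-fold lower, 142 genes (2.13%) were higher in all 8 pools and 4 (0.0601%) lower. The 4 were F13a1, a transglutaminase (1409 CPM in microglia against 4025), the lipid transfer protein Pltp (219 against 626), the membrane protein Stom (154 against 457) and Gas7 (166 against 380). Of the 16 perivascular macrophage genes F13a1 alone passed, and their median log2 ratio was -1.34. Lyve1, the hyaluronan receptor of perivascular macrophages, was at 868 CPM in microglia and 2335 in macrophages, the mannose receptor Mrc1 at 3238 and 7594, the scavenger receptor Stab1 at 3621 and 8097, and Cd163, the haemoglobin receptor, at 708 and 1694. Counts of Mrc1 and Stab1 were found in all 215 microglia.

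Cell by cell, the 7 markers took 0.241% to 6.75% of the counts of a microglial cell (median 2.71%), and 206 of 215 cells lay above the highest macrophage, at 1.38%. The perivascular macrophage list took 0.0121% to 3.67% of a microglial cell (median 1.52%), and 51 of 215 cells reached the 10th percentile of macrophages, at 2.19%. The types were thus nearly apart in the first measure and overlapped in the second. Within a pool, cells with more of the 7 markers had more of the other microglia-enriched genes (median Spearman rho over the 8 pools 0.75, positive in 8) and less of the perivascular list (rho -0.48, negative in 7 of 8 pools). These correlations run over the 15 to 47 cells of a pool, which share a plate, and shares of 1 total pull against each other. The marker share was little related to depth (rho 0.12).

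**Figure D4:**
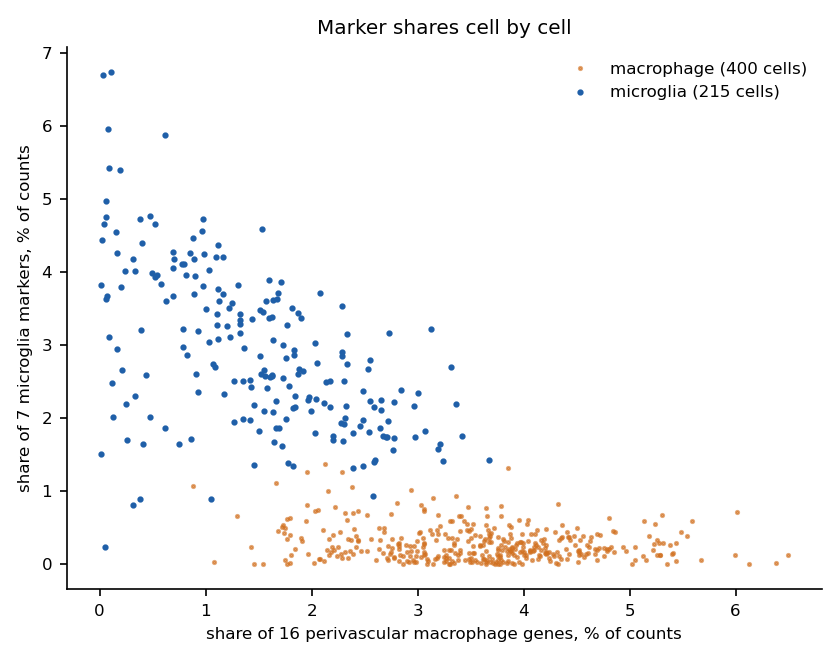
Each point is a cell, with the share of its counts in 16 perivascular macrophage genes on the horizontal axis and in the 7 microglia markers on the vertical axis. Of the 215 microglia (blue) 206 lie above all 400 macrophages (orange, at most 1.38% on the vertical axis), while 51 reach 2.19% on the horizontal axis.

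Variation between cells was measured as the coefficient of variation (CV, standard deviation over mean) of a gene's CPM over the cells of a pool. It fell with the level, from a median of 2.06 for genes of 20 to 50 CPM, found in 37.2% of cells at the median, to 0.478 for genes of 1000 CPM and more. ERCC spike-ins of the same wells, scaled to the ERCC total alone, varied less than genes of matched mean count. The median CV was 1.07 for ERCC and 1.63 for genes at 10 to 30 counts. At 300 to 1000 counts it was 0.170 (19 pairs of spike-in and pool) and 0.600. It was lower for ERCC in 8 of 8 pools in each of 4 count ranges. An abundant spike-in is a larger part of its total than a gene is, which lowers its CV, so the values are not like for like. No gene of 6162 (0%) had a CV of at least 2 times that of genes of its level in 7 of 8 pools. At 1.5 times in 6 of 8 pools, a limit chosen after that result, 12 genes (0.195%) stood out.

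Of these 12 genes 5 belonged to the perivascular macrophage list of 16. They were the lectin receptors Cd209f and Cd209b, Cd163, Lyve1 and F13a1. Lyve1 had a CV of 1.16 and ran from 0.436 CPM at the 10th percentile of cells over 501 at the median to 2509 at the 90th. Cd163 had a CV of 1.23 and ran from 4.47 over 361 to 1990 CPM at the same points. Lyz2 was present in all 215 cells but at 10.1 to 27378 CPM, with a CV of 1.09. The others were the gelatinase Mmp9 (CV 2.57, found in 52.6% of cells), the complement genes C4b (1.99) and Cfp (1.33), Cd74 (2.27), the matricellular protein Ccn1 (1.63) and the lysosomal acetyltransferase Hgsnat (1.45). Each of the 12 genes except Cd74 had a higher median level in the macrophage pools than in the microglial pools. The median ratio of CV to that of genes of the same level was 1.48 for the perivascular list, 1.05 for the 7 markers and 0.88 for lysosomal genes. When cells were thinned to 77835 counts, which left out 22 of 215, 11 of the 12 genes remained.

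The genes of lowest variation among those of at least 1000 CPM were C1qa (CV 0.255), the membrane protein Serinc3 (0.268), Csf1r (0.278), C1qb (0.284), Itm2b (0.296), Lgmn (0.306), Unc93b1, which delivers nucleic acid-sensing Toll-like receptors to endosomes (0.310), and C1qc (0.311). C1qa was at 4597 CPM at the 10th percentile and 7210 at the median of cells, and its lowest cell had 984 CPM. Csf1r was at 11430 and 18337 CPM at these points, with a lowest cell of 3444.

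**Figure D5:**
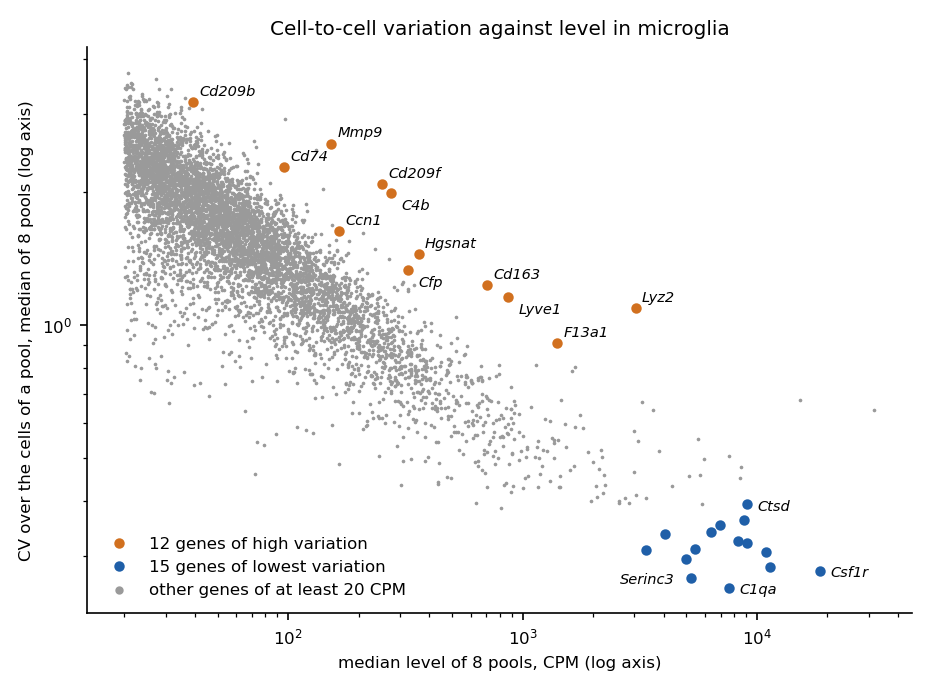
CV over the cells of a pool (median of 8 pools, log axis) against level (CPM, log axis) for 6162 genes. The 12 genes of high variation (orange) lie at or above the upper edge of the grey cloud at their level, led by Mmp9 and Lyz2, and the 15 genes of lowest variation among those of at least 1000 CPM (blue) include C1qa at 0.255 and Csf1r at 0.278.

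Among genes associated with the response of microglia to disease, Apoe took nearly all counts. The list of 14 such genes held 2.25% to 7.22% of the counts, and Apoe alone 2.21% to 6.47%. Without Apoe the list held 0.0318% to 0.756% (median 0.0723%, macrophages 0.0697%), and the highest other members were Cd9 at 288 CPM and Igf1 at 125. Spp1, which encodes osteopontin, had a median of 13.0 CPM and was found in 18.1% of cells, and Gpnmb, a transmembrane glycoprotein of lysosome-rich macrophages, a median of 0.0527 CPM and 5.12% of cells. Of all 215 microglia, 3 cells had at least 1000 CPM of Gpnmb, and the same 3 cells were the only ones with at least 1000 CPM of Spp1. These cells were singled out after their values were seen. Both pools that held them, 530s WT with 2 and 056s Het with 1, had 4112 and 413 CPM of Spp1 in sum, and the other 6 pools had 0 to 32.4.

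The first cell, on plate 530s, had 29201 CPM of Gpnmb, 28196 of Spp1 and 111600 of cathepsin B, and its lysosomal genes took 28.9% of its counts. It held the least of the 7 markers of all microglia (0.241%), with 249 CPM of P2ry12 and no count of Tmem119 or Sall1 among 288620 counts. The second, on plate 056s, had 5169 CPM of Gpnmb and 6885 of Spp1 but kept 5562 CPM of P2ry12 and 7510 of Tmem119. The third, on plate 530s, had 3324 CPM of Gpnmb, 24625 of Spp1 and 275320 of Apoe, with 172 CPM of P2ry12 and 192 of Tmem119. All 3 had 22488 CPM or more of Ctsb, while the other 212 microglia had at most 18239. Other genes did not set all 3 cells apart. Ctsd was at 17402 to 61926 CPM in them and at most 21553 in the other 212. Apoe was at 43937 to 275320 CPM in them and at most 270560 in the other 212. Cst3 was at 2751 to 8617 CPM in them, with a median of 6708 and a highest value of 55948 in the other 212. The 3 cells had 0.0509% to 0.376% of perivascular macrophage genes, below the median of microglia. None of 400 macrophages reached 1000 CPM of Gpnmb, and 10 did for Spp1.

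Immediate early genes, which cells switch on rapidly after stimulation, held 0.0989% to 0.153% of the counts in 7 pools and 0.480% in the 529s WT pool. The median cell of that pool held 0.413%, and the median cells of the other pools 0.0834% to 0.154%. Cytokine and NF-kB target genes were also highest there, at 0.250% against 0.0760% to 0.109%, and 1 cell gave 45.2% of these counts. The macrophages of the same pool had 0.504% of immediate early genes against a median of 0.123%.

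The genotypes were compared as 2 KO pools, 060s and 524s, against 6 control pools, 3 WT and 3 Het. With genes of at least 20 CPM in either group, 72 of 6982 (1.03%) had both KO pools above all controls with a ratio of means of at least 2, and 50 (0.716%) had both below. With Rn18s kept in the total the counts were 34 and 13. Plate 524s was the only plate with both KO and control microglia, where the KO pool was at least 2-fold above the Het pool for 56 of the 72 genes and below it for 38 of the 50. The rule itself fixes these directions, and over all genes tested the shares were 15.2% and 11.8%. Xist was at 939 CPM in the KO pool of this plate and at 8.81 in the Het pool, and Ddx3y at 0.0894 and 70.15. Sex and genotype therefore cannot be told apart within plate 524s. The called genes were of low level: the mean of the higher group had a median of 36.2 CPM over these genes. The highest group mean was 151 CPM, and 0 genes had a group mean over 200 CPM. Among the genes higher in KO with the largest ratios were Snph, Pomgnt2, Slc22a23, Neo1, Prkar1b, Sdr42e1, Zbtb49, Zfp639, Bhlhb9 and Abcb9, and among those lower were Dip2c, Epb41l1, Zfp609, Sdk1, Zfp951, Prune1, Dipk1a and Rnaseh2b. None of these genes is a member of the gene lists, and each was found in 8.37% to 26.0% of microglia. Neighbours in the genome can share reads (Prkar1b with Gm15672, Zfp639 with Gm37592, Bhlhb9 with Gprasp1 and Gprasp2, Abcb9 with Gm34086, Rnaseh2b with Dleu7, Prune1 with Mindy1, Dip2c with Gm48872).

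Neo1, a receptor for netrins and repulsive guidance molecules, was at 21.5 and 36.5 CPM in the KO pools and at 0.330 to 13.8 in the controls. A count was found in 20 of the 78 KO cells and in 18 of the 137 control cells, which share pools and are not replicates of a genotype. Sdk1, a cell adhesion molecule, was at 9.96 and 1.97 CPM in the KO pools and at 16.9 to 61.0 in the controls, with a count in 14.1% and 31.4% of cells. Snph, a mitochondrial anchoring protein, had the largest ratio among the named genes that were higher (6.29-fold on the scale of CPM + 1), at 18.2 and 46.0 CPM against 0 to 16.7, and 1 cell gave 33.8% of its KO counts.

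Of the gene lists, 1 member differed between genotypes by this rule, 1 of the 24 surface receptor genes tested. Beside the shares of all genes (1.03% and 0.716%), a list of 7 to 28 genes with no call does not stand apart. Clec5a, a lectin receptor that signals through Tyrobp, was at 38.8 and 37.1 CPM in the KO pools and at 42.7 to 157 in the controls. None of the 7 markers, the 15 other microglia-enriched genes, the 28 lysosomal genes, and the tested members of the complement (10), Notch (10), TGF-beta (10) and perivascular macrophage (16) lists passed. The median log2 ratio of KO over controls was 0.04 for the markers, 0.09 for the other microglia-enriched genes, -0.03 for lysosomal genes, -0.22 for complement, 0.08 for Notch and -0.12 for perivascular genes, beside 0.01 for all genes tested. For the disease response list it was -0.58, for immediate early genes -0.72 and for cytokine and NF-kB target genes -0.83, and the control pools with the Gpnmb-high cells and with the high immediate early share are those described above. The counts of genes rose when a plate was left out. Leaving out plate 060s or plate 524s left 1 KO pool and gave the largest counts. Leaving out plate 529s gave 145 higher and 115 lower, and leaving out plate 059s gave 126 higher. With fewer pools the rule of no overlap is easier to meet, so these counts do not measure the part of single plates. When the top cell of each gene was left out of each pool, 147 genes were higher and 10 lower, of which 44 and 7 were among those called at first. Leaving out 1 cell takes more from a small pool. The KO pools held 47 and 31 cells and the control pools 15 to 44, so this shift cannot be read as a trait of the genes.

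The plates fell into the series 056s, 059s and 060s (106 microglia) and the series 524s, 529s and 530s, and all cells of the pools with Xist lay on the second. The median share of Rn18s was 16.1% to 38.1% in the 3 pools of the first and 51.3% to 55.9% in the 5 of the second, and the counts of genes depended on it. By the same rule 133 of 7076 genes (1.88%) were higher in the first series and 35 (0.495%) lower, and with Rn18s kept in the total 725 were higher and 0 lower, with a median log2 ratio of 0.70 over all genes tested in place of 0.10. With Rn18s left out, 0 genes were called both here and between genotypes. The named genes higher in the first series were Fchsd1, Amigo1, Arhgap32, Hdac2, Prnp, Ptprm, Ppp1r12b, Tipin, Nup107 and Poc5. Hdac2, a histone deacetylase, was at 17.3 to 32.5 CPM there and at 0.364 to 12.5 in the second series. Those lower were S100a9, Msi2, S100a8, Anapc16, Aatk, Gba2, Mrps23, Tsr2, Lclat1 and Slc10a3. Exons overlap for Fchsd1 with Rell2, Prnp with Prn, Ptprm with AC139750.1, Ppp1r12b with Gm28892, Poc5 with Ankdd1b, Slc10a3 with Ubl4a, Tsr2 with Fgd1 and Gba2 with Creb3 and Rgp1.

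Among list members, the scavenger receptor Cd36 was at 384 to 583 CPM in the first series and at 114 to 335 in the second, and the growth factor Igf1 at 153 to 326 and 75.9 to 125. The coactosin gene Cotl1 was at 130 to 255 CPM in the first series and at 282 to 543 in the second. S100a9 and S100a8, calcium-binding proteins abundant in neutrophils, were at 2.11 to 4.47 and 3.32 to 5.33 CPM in the first series. In the second they were at 4.47 to 117 and 5.64 to 93.9, so that the ranges of S100a9 touch, and 1 cell gave 66.8% and 57.9% of the counts. A count of S100a9 was found in 54.7% of cells of the first series and 51.4% of the second. The counts lower in the first series fell to 18 when the top cell of each gene was left out, and leaving out 1 plate at a time gave 182 to 347 genes higher and 54 to 119 lower. Leaving out 1 cell takes more from a small pool, and with fewer pools the rule is easier to meet. With DESeq2 size factors 76 were higher and 68 lower. The 7 markers, lysosomal and homeostatic genes held no call in this comparison. Beside the shares of all genes (1.88% and 0.495%), lists of 7 to 28 genes with no call do not stand apart.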

How the data were processed

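Single brain cells were sequenced with SMART-seq2. The authors deposited a table of whole-number read counts for 53546 gene symbols and 92 ERCC spike-ins, 1 column per cell. Alignment used STAR, per the submitters' processing notes; its version, the genome build, the annotation, the counter and the handling of strand and of reads matching several places are not given in the sources used here.

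Counts were summed over the microglia of each plate and genotype and scaled to CPM without ERCC and Rn18s. Total counts per cell ran from 13829 to 2107020. Exon lengths and overlaps came from GENCODE M21, which held 50067 of the symbols and 99.3% of the counts, and promoter sequences from RefSeq on GRCm38.p6. No animal is named, so no test between groups was made. A gene was called between genotypes or plate series when it reached 20 CPM in a group mean, no pool overlapped and the means of CPM + 1 differed 2-fold. Against macrophages it was called when it differed 4-fold in all 8 pools. High variation meant a CV of 2 times the running median of 101 genes in 7 of 8 pools. Correlations over cells are descriptive.

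Genes were named by rule: the 7 markers, the 25 highest per kb, up to 15 variable genes, up to 10 called genes in each direction between genotypes and plate series and up to 12 between cell types, and for each list its highest and its called members. Predicted genes, pseudogenes, mitochondrial and ribosomal protein genes were counted and not named. Some genes the rule would name are not reported here. The steady genes, the single cells and low members of lists were chosen after their values were seen. Cells and gene lists (31 lists, 394 genes) were chosen with earlier results of these data known. Alternatives were the mean of the cells' own CPM, Rn18s in the total, each plate left out, edgeR TMM factors, DESeq2 size factors, thinned cells, a pseudocount of 5 CPM and other filters. The limits of 1.5 times in 6 of 8 pools and of 2-fold against macrophages, leaving out the top cell of each gene or list, and the comparison within plate 524s, were added after seeing the data. The calling rules were also run on simulated counts. For the comparisons of pools these held no single cell giving much of a gene's counts, as real pools did. That run therefore does not measure false calls here. Python 3.11.15, pandas 2.3.3, numpy 2.4.6, scipy 1.17.1, matplotlib 3.10.9, R 4.3.3, edgeR 4.0.16 and DESeq2 1.42.0 were used.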

Additional observations from a re-analysis of the deposited data

Results flagged for a closer look

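In 11 of 40 gene lists and markers looked at, 1 of the 8 microglial pools stood far from the other 7 by Dixon's criterion. The criterion only picked pools for a closer look. Its nominal rate of about 1 in 20 groups cannot be applied here, since the lists share cells and pools. The 529s WT pool was highest for immediate early genes (0.480% of the counts), for cytokine and NF-kB target genes (0.2502%, of which 1 cell gave 45.2%) and for myeloid transcription factors (0.4493%). The 530s WT pool was highest for the disease response list (7.224%, of which 1 cell gave 45.0%), for MHC class II genes (0.08523%, 1 cell 59.7%), for glycolysis genes (0.2099%) and for ribosomal protein genes (0.446%). The median cell of this pool held 0.141% of glycolysis genes, within the 0.134% to 0.170% of the other pools. For ribosomal protein genes it held 0.411% against 0.263% to 0.370%. The 524s KO pool was highest for MHC class I genes (0.9036%), and the median of its cells was also highest, at 0.852% against 0.437% to 0.672% in the others. The same pool was highest for mural cell genes (0.01024%) and fibroblast genes (0.006675%), of which 1 cell gave 81.4% and 97.7%. The 529s Het pool was highest for monocyte and neutrophil genes (0.02318%), of which 1 cell gave 90.1%, and the share without it was 0.00238%.

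In data outside these comparisons, the 14 cells of the type named 7 held P2ry12 at 778.2 CPM, between macrophages and microglia.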

How the results depend on the processing

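Values rest on 8 pools of 15 to 47 cells, no animal is known, and genes of 20 to 50 CPM were found in 37.2% of cells at the median. Microglia and macrophages were paired within each pool, by a rule and not by a test. Genotypes and plate series could not be paired over animals, since none is named.

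With Rn18s kept in the total, the median share fell to 1.61% for the 7 markers, 2.52% for the other microglia-enriched genes, 4.82% for lysosomal genes, 1.43% for complement, 0.829% for perivascular genes and 1.23% for mitochondrial genes. The genotype counts became 34 higher and 13 lower, and the plate series counts 725 and 0. With DESeq2 size factors the plate series gave 76 and 68. With no filter on low levels the counts were 286 and 99 between genotypes and 320 and 75 between plate series. With the top cell of each gene left out they were 147 and 10 between genotypes, and 18 lower between plate series. Leaving out 1 plate at a time gave 93 to 447 higher and 57 to 322 lower between genotypes, 182 to 347 and 54 to 119 between plate series, and 0 to 4 genes of high variation (4 without plate 529s, 2 without 530s). A 2-fold limit against macrophages gave 142 and 4, and the limit of 1.5 times gave 12 variable genes. With fewer pools the rule of no overlap is easier to meet, and leaving out the top cell takes more from small pools. Other causes of these changes were not tested. Of the log2 ratios of named genes, 222 stayed past the limits and 58 did not between genotypes, 216 and 64 between plate series and 167 and 1 between cell types, over all alternatives. No log2 ratio of a named gene changed sign. For a plate left out, the pseudocount and the filter, the calling rule itself fixes that sign. The named genes also had the largest ratios, so the unchanged sign does not show that the calls are stable.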
